A study of Mus musculus with 2 samples.

Results

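The S phase and mitosis genes described here are 38 genes of the cell division machinery, 20 of S phase and 18 of mitosis, picked by gene symbol from the 32285 genes listed in the data. All 38 symbols were found in both libraries. The data are single-cell RNA counts from lungs of wild-type C57BL/6 mice injected in the tail vein with 100 µl of phosphate-buffered saline, alone (control) or carrying 400000 B16-F10 cells (B16-F10), and killed after 6 h. B16-F10 is a mouse melanoma line that colonizes the lung after intravenous injection. Cells that stained for Pecam1, an endothelial surface protein, but not for Ptprc, found on leukocytes, were sorted from both groups, and lungs that had received B16-F10 cells also gave dye-labelled melanoma cells. The labels give 2 mice per treatment, but the study's paper does not match that, so the number of animals behind each library is unsettled. Cells were pooled into 1 library per group, so there was no replicate error and no test, and every difference below compares 2 libraries.

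A cell that divides first copies its DNA in S phase and then separates the copies in mitosis. Licensing proteins load the MCM helicase on replication origins, cyclin E with its kinase helps to fire them, and the replication machinery then uses nucleotides made by enzymes such as ribonucleotide reductase. Cyclin A and cyclin B with Cdk1 drive entry into mitosis, the Aurora and Polo kinases build and check the spindle, and the anaphase-promoting complex ends mitosis by marking cyclin B for destruction. Most endothelial cells (ECs) of the adult lung are quiescent, and the transcripts of mitosis are made in a short window of the cycle.

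Cells with 1000 to 5000 genes and under 20% mitochondrial counts were kept. After removal of called doublets, the control library held 7830 cells and the B16-F10 library 7767, of which 6939 and 6335 fell in clusters named as ECs from endothelial markers. Depth differed, with a median of 7656 unique molecular identifiers (UMIs, each a captured RNA molecule) per EC in the control and 9078 in the B16-F10 library. The 2 libraries shared 19 cell barcodes among 8394 and 8321 cells. Without those cells, a check added after the data had been seen, the ratios given below for the summed members in ECs were 0.12 for S phase and 1.16 for mitosis. Another 866 and 1235 cells lay in 6 clusters that carried endothelial markers together with those of another cell type, and these mixed clusters were kept out of the ECs. UMIs were summed over the cells of a class, and a level is its share of that sum per 1000000 UMIs (CPM). Each ratio is the log2 of B16-F10 CPM divided by control CPM, and all intervals are 95% intervals that cover counting error only. Those of levels and ratios treat each UMI as independent. They leave out the clumping of mitosis UMIs in few cells that is described below, and are too narrow by that.

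The promoters of 6 members are shown, 4 of mitosis and 2 of S phase, because the 2 phases moved differently between the libraries and their promoters hold different letters. Each window runs from 250 bases before to 50 bases after the gene start, 5′ to 3′ on the strand of the gene, from RefSeq on GRCm38.p6. Capitals mark 3 motifs searched on both strands, namely the cell cycle homology region or CHR (TTTGAA or TTCGAA), the CCAAT box (CCAAT) and an E2F site (TTTCCCGC, TTTCGCGC, TTTGCCGC or TTTGGCGC). The Mcm3 window lies at chr1:20820263-20820562 on the minus strand, Mcm6 at chr1:128359656-128359955 on the minus strand, Mki67 at chr7:135716330-135716629 on the minus strand, Top2a at chr11:99024140-99024439 on the minus strand, Ccnb2 at chr9:70421505-70421804 on the minus strand and Cdk1 at chr10:69352863-69353162 on the minus strand.
Mcm3: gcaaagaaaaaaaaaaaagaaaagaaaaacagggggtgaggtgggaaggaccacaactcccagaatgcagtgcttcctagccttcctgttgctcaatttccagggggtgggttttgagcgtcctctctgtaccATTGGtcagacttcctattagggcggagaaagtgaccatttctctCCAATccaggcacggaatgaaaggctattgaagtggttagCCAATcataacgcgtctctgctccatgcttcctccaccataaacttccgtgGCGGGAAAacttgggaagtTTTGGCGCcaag
Mcm6: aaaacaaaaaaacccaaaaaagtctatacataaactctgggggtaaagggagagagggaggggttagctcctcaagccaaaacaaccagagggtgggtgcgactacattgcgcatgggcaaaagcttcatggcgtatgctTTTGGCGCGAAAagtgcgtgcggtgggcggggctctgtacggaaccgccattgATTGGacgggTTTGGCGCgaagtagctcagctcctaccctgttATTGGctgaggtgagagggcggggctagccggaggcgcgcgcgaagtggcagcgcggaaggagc
Mki67: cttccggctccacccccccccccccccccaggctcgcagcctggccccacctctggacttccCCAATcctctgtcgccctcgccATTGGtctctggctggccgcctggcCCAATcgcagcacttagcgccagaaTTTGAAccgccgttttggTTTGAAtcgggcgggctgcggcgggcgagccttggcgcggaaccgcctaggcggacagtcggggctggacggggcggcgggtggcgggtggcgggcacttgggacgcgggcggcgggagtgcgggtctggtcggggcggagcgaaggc
Top2a: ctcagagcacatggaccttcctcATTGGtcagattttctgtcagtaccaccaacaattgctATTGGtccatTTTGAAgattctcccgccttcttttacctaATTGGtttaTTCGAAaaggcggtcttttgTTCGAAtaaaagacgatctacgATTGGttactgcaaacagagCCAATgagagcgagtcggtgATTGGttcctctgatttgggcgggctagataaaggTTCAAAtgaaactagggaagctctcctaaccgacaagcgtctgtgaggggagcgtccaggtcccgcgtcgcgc
Ccnb2: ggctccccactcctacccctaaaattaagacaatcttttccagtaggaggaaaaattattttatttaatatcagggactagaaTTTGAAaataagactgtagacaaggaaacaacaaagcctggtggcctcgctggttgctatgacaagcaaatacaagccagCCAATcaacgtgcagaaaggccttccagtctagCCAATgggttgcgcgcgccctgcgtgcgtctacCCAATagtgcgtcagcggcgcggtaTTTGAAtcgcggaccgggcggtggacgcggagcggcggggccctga
Cdk1: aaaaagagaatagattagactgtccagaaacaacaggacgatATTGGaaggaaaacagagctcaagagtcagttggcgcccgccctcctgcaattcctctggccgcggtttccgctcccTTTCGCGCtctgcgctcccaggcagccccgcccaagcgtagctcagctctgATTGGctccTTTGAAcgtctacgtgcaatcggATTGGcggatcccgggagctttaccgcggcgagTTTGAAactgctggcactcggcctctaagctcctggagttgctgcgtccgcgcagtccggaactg

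The CHR is the element through which mitosis genes are held silent outside late cell cycle phases, and many S phase genes are controlled through E2F sites. RefSeq promoters were matched for 32 of 38 members. A CHR was found in 11 of 15 mitosis promoters (73.3%) and in 3 of 17 S phase promoters (17.6%), against 6316 of all 32851 promoters (19.2%). The E2F motif was found in 1 of 15 mitosis promoters (6.67%) and in 7 of 17 S phase promoters (41.2%), against 2.26% of all promoters. CCAAT boxes were found in 13 of 15 and 12 of 17, against 37.4% of all. Among cell cycle genes outside the 38, the CHR was found in 28 of 38 mitosis promoters and in 6 of 29 S phase promoters. In the windows printed above, the CHR is present in Mki67, Top2a, Ccnb2 and Cdk1 and absent from Mcm3 and Mcm6, which hold E2F letters instead. The first 2 E2F matches of Mcm6 overlap. A match describes letters only and shows no binding.

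Mitosis genes were higher in the ECs of the B16-F10 library, and S phase genes were close to level. Summed over ECs, the 18 mitosis members went from 749 UMIs (13.5 CPM, interval 12.6 to 14.5) in the control library to 1784 UMIs (30.2 CPM, 28.8 to 31.6) in the B16-F10 library, a log2 ratio of 1.16 (1.03 to 1.28). The 20 S phase members went from 11079 UMIs (200.1 CPM) to 12854 UMIs (217 CPM), a ratio of 0.12 (0.08 to 0.16). In total 32 of 38 members had at least 50 UMIs over both libraries, and those are called measured below. Of these, 28 were higher and 4 lower, and their median ratio was 0.40 against -0.05 over all genes measured by the same rule. At least 1.5-fold higher were 11 members, all of mitosis, where 8.35% of all 14344 measured genes met the same limit, and at least 1.5-fold lower were 3 members, where 10.6% of all genes did. The 16 measured mitosis members had a median ratio of 1.22 and were all higher, and the 16 measured S phase members had a median ratio of 0.10. The mitosis ratio depended on which cells were kept as ECs. It was 0.21, with 2 members at least 1.5-fold higher, when cell cycle genes were kept in the clustering. There 12 strongly cycling B16-F10 cells and 1 such control cell fell in a mixed cluster, and their part in the fall was not tested. Without the upper limit of genes per cell the mitosis ratio was 2.21, with 19 members higher.

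**Figure D1:**
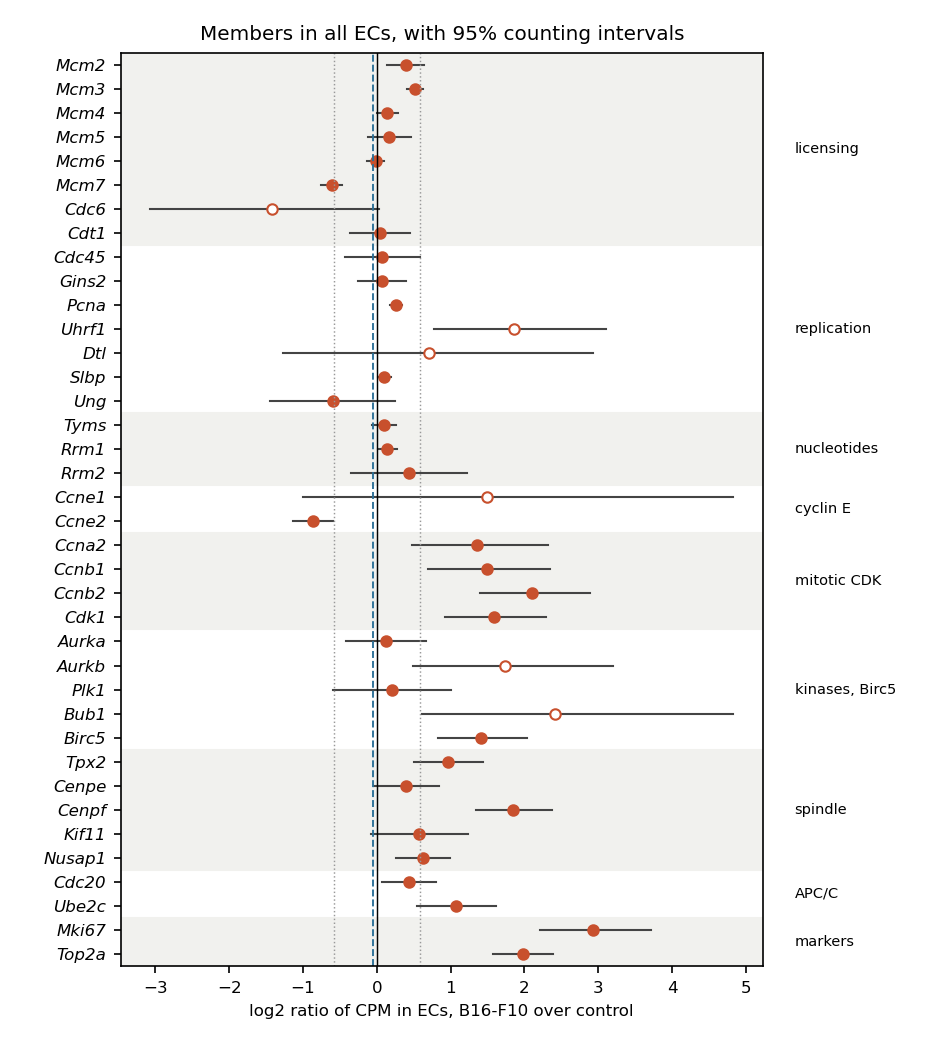
Log2 ratio of CPM, B16-F10 over control, of all 38 members in summed ECs (x axis) with 95% counting intervals, grouped by role; hollow points have under 50 UMIs, dotted lines mark 1.5-fold and the dashed line the median of all genes. Among filled points the mitosis members run from 0.12 (Aurka) to 2.92 (Mki67), and the S phase members from -0.86 (Ccne2) to 0.52 (Mcm3).

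The 8 licensing members were level as a group. They bind origins (Cdc6 and Cdt1) or form the MCM helicase (Mcm2 to Mcm7), and their sum went from 83.7 to 88.9 CPM, a ratio of 0.09 (0.03 to 0.14). Within the helicase the subunits differed in direction. Mcm3 went from 1131 UMIs (20.4 CPM) to 1727 UMIs (29.2 CPM), a ratio of 0.52 (0.41 to 0.63). Mcm2 went from 224 UMIs (4.04 CPM) to 314 UMIs (5.31 CPM), a ratio of 0.39 (0.14 to 0.65). Mcm7 was at least 1.5-fold lower, with 1023 UMIs (18.5 CPM) in the control library and 715 UMIs (12.1 CPM) in the B16-F10 library, a ratio of -0.61 (-0.75 to -0.47). Mcm6 had 1202 and 1269 UMIs, a ratio of -0.02 (-0.13 to 0.10). Mcm4 had 756 and 893 UMIs at 0.15 (0.00 to 0.29), and Mcm5 had 184 and 221 UMIs at 0.17 (-0.12 to 0.46). So 3 of 6 subunits had intervals above 0, 1 had an interval below 0, and 2 had intervals that included 0. Cdt1 had 101 and 111 UMIs at 0.04 (-0.36 to 0.44), and Cdc6, with 15 and 6 UMIs, was below the count minimum.

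The replication members were slightly higher as a group. Their sum went from 83.7 to 95.8 CPM, a ratio of 0.19 (0.14 to 0.25), and most of it was Pcna, the sliding clamp of DNA polymerases. Pcna went from 2572 UMIs (46.4 CPM) to 3291 UMIs (55.6 CPM), a ratio of 0.26 (0.19 to 0.34). Slbp, which binds the stem-loop of histone mRNA, had 1807 and 2073 UMIs at 0.10 (0.01 to 0.20). The intervals of Gins2 and Cdc45, both parts of the replicative helicase complex, included 0, with ratios of 0.07 (-0.26 to 0.39) and 0.08 (-0.43 to 0.59). Ung, a uracil glycosylase of DNA repair, was past the 1.5-fold limit downwards with 31 and 22 UMIs, but its interval was -1.45 to 0.25. Uhrf1, which keeps methylation marks during replication, had 9 and 35 UMIs, under the count minimum, with a ratio of 1.86 (0.78 to 3.11). Dtl had 4 and 7 UMIs.

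The nucleotide enzymes were level and cyclin E was lower. Rrm1, the large ribonucleotide reductase subunit, had 876 and 1032 UMIs at 0.14 (0.01 to 0.27), and Tyms, which makes thymidylate, had 585 and 669 UMIs at 0.10 (-0.06 to 0.26). Rrm2, the small subunit that is made in S phase, had 25 UMIs (0.451 CPM) and 36 UMIs (0.609 CPM) at 0.43 (-0.34 to 1.23). Ccne2, one of the E cyclins, was at least 1.5-fold lower, with 318 UMIs (5.74 CPM) in the control library and 187 UMIs (3.16 CPM) in the B16-F10 library, a ratio of -0.86 (-1.13 to -0.60). Ccne1 had 2 and 6 UMIs and could not be compared. The lower Ccne2 and Mcm7 were also seen in ECs outside the cycling cells defined below, at -0.90 and -0.62.

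The mitotic kinase Cdk1 and its cyclins were higher in the B16-F10 library, each by more than 1.5-fold. Summed, the 4 genes went from 78 UMIs (1.41 CPM) to 267 UMIs (4.51 CPM), a ratio of 1.68 (1.31 to 2.06). Ccnb2 went from 20 UMIs (0.361 CPM) to 92 UMIs (1.56 CPM), a ratio of 2.11 (1.40 to 2.88). Cdk1 went from 25 to 80 UMIs at 1.58 (0.92 to 2.29), Ccnb1 from 18 to 54 UMIs at 1.49 (0.70 to 2.35), and Ccna2 from 15 to 41 UMIs at 1.36 (0.47 to 2.32). All 4 intervals were above 0.

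Of the mitotic kinases and their partner Birc5, which together with Aurkb guides chromosome attachment, Birc5 alone of the 3 measured met the 1.5-fold limit. Birc5 went from 33 to 94 UMIs at 1.42 (0.83 to 2.03). Aurka had 56 and 65 UMIs at 0.12 (-0.42 to 0.66), and Plk1 had 26 and 32 UMIs at 0.20 (-0.59 to 1.01). Aurkb (7 and 25 UMIs) and Bub1 (3 and 17 UMIs) were under the count minimum, with ratios of 1.74 (0.49 to 3.19) and 2.41 (0.62 to 4.82). The intervals of Aurka and Plk1 included 0, and that of Birc5 did not.

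Among spindle and kinetochore members, 3 of 5 met the limit. Cenpf, a kinetochore protein, went from 42 to 161 UMIs at 1.84 (1.35 to 2.37), Tpx2, which activates Aurora A on the spindle, from 59 to 123 UMIs at 0.96 (0.51 to 1.44), and Nusap1, a microtubule binding protein, from 101 to 166 UMIs at 0.62 (0.26 to 0.99). Kif11, a spindle motor, had 34 and 54 UMIs at 0.57 (-0.07 to 1.24), and Cenpe, a kinetochore motor, had 76 and 107 UMIs at 0.40 (-0.04 to 0.84). Of the anaphase-promoting complex partners, Ube2c, its ubiquitin-conjugating enzyme, went from 44 to 99 UMIs at 1.08 (0.55 to 1.62), and Cdc20, its activator, had 107 and 155 UMIs at 0.44 (0.08 to 0.81). Of the 2 marker genes, Mki67 had the largest ratio of all measured members, while Top2a lay below Ccnb2. Mki67, which coats mitotic chromosomes, went from 18 UMIs (0.325 CPM) to 146 UMIs (2.47 CPM) at 2.92 (2.21 to 3.72), and Top2a, which untangles DNA, from 65 UMIs (1.17 CPM) to 273 UMIs (4.62 CPM) at 1.98 (1.58 to 2.39).

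Cell cycle genes outside the 38 were counted in the same way. Of 40 other S phase genes 36 were measured, 13 were higher and 23 lower, with a median of -0.14, and 1 gene met the 1.5-fold limit in each direction, where 8.35% of all measured genes were higher by it and 10.6% lower. These were Timeless, a replication fork protein, at 0.80 (0.69 to 0.91), and Orc1, an origin recognition subunit, at -1.41 (-1.73 to -1.10). Of 45 other mitosis genes 37 were measured, 14 met the limit upwards and 2 downwards, against the same 8.35% and 10.6%, with a median of 0.25. The 5 largest were Cdca3 (2.74), Hmmr (2.14), Bub1b (1.70), Prc1 (1.57) and Ckap2 (1.52), and the 2 lower were Kif4 (-1.04) and Ndc80 (-0.63). In ECs outside the cycling cells defined below, 30 of this list were measured, 11 higher and 19 lower, with a median of -0.26. There 2 met the limit upwards and 6 downwards, where 8.15% and 10.8% of all genes did. Of 23 cell cycle regulators 21 were measured in all ECs. Myc, a growth-promoting transcription factor, had 47 and 1602 UMIs, a ratio of 5.0 (4.58 to 5.45), and Foxm1, a driver of mitosis genes, had a ratio of 0.87 (0.31 to 1.45). Of the 21, 2 were higher by the limit and 4 lower, against the same 8.35% and 10.6%. The 4 were E2f7 (-1.02), Lin9 (-0.98), Rbl2 (-0.88) and Skp2 (-0.70).

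To ask how many ECs were cycling, an EC was called cycling when it held at least 2 UMIs of Mki67 and Top2a together. This definition uses the 2 marker genes, so their level in cycling ECs is set by it. Cycling were 19 of 6939 control ECs (0.274%, 0.165 to 0.427) and 37 of 6335 B16-F10 ECs (0.584%, 0.412 to 0.804). The difference was 0.310 percentage points (0.0885 to 0.551). It was smaller, with an interval that included 0, when cell cycle genes were kept in the clustering (0.164, -0.0278 to 0.372), when ECs were taken cell by cell (0.223, -0.114 to 0.667) and when cycling was called from at least 3 UMIs of the other mitosis members (0.159, -0.0642 to 0.395). Because the B16-F10 cells were deeper, each EC was also thinned to 2000 UMIs, leaving out 85 and 40 shallower ECs. At least 2 UMIs of the 2 markers, as in the definition, were then found in 3 of 6854 control ECs and 10 of 6295 B16-F10 ECs. The difference was 0.115 points (0.0035 to 0.252), the lowest of the alternatives run. At least 1 UMI was found in 16 control ECs (0.233%) and 32 B16-F10 ECs (0.508%), a difference of 0.275 points (0.0674 to 0.502). Cells with 7 or more UMIs of the 2 markers numbered 1 in the control and 12 in the B16-F10 library. A background from free RNA was looked for in neutrophil-like cells, which should not divide. At least 1 UMI was found in 1 of 3 such control cells, and that cell held 2 and so met the cycling call. In the B16-F10 library 0 of 19 held any (which allows a share of up to 15.8%). Median depths were 5636 and 6504 UMIs, and these were too few cells to set a level.

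**Figure D2:**
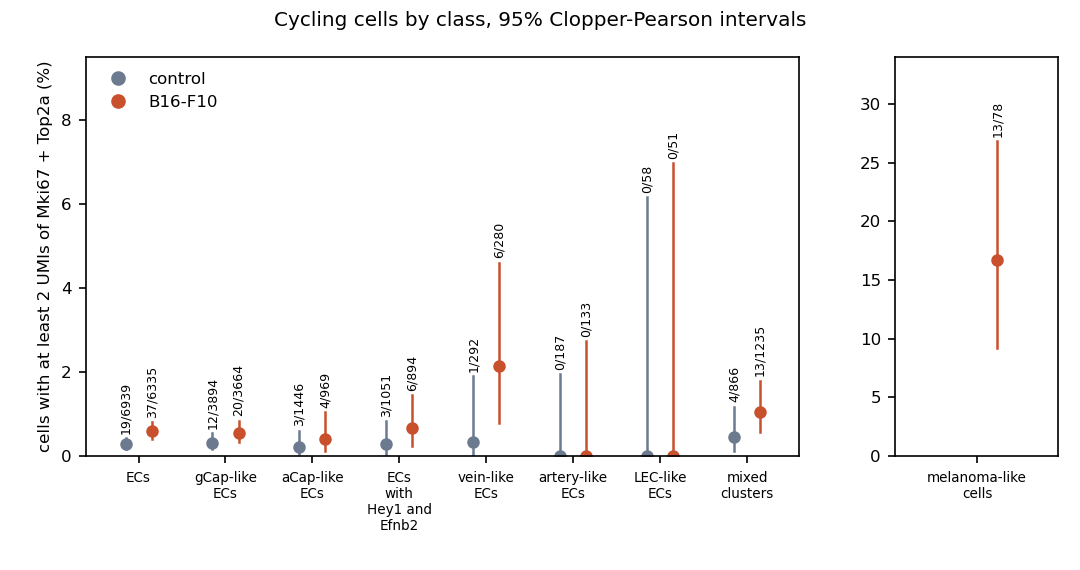
Share of cycling cells (percent, with exact 95% intervals) in ECs, EC classes and mixed clusters of the control and B16-F10 libraries, without the EC cluster with Fosl1 and Sox9. Cycling cells over all cells are printed above each point, and melanoma-like cells are on their own axis. ECs as a whole sit at 0.274% and 0.584%, and the intervals of the 2 libraries overlap there and in every class found in both.

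By vessel class, cycling cells were found in general capillary (gCap-like) ECs at 12 of 3894 (0.308%) in the control and 20 of 3664 (0.546%) after B16-F10, a difference of 0.238 points (-0.0619 to 0.562). In vein-like ECs they were 1 of 292 (0.342%) and 6 of 280 (2.14%), a difference of 1.80 points (-0.151 to 4.27). In aerocyte (aCap-like) ECs they were 3 of 1446 and 4 of 969, and in a large unnamed EC cluster with Hey1 and Efnb2 among its leading genes they were 3 of 1051 and 6 of 894. A second unnamed EC cluster, with Fosl1 and Sox9 among its leading genes, held 0 of 11 and 1 of 344. None was found in artery-like (187 and 133 cells, which allow a share of up to 1.6% and 2.26%) or lymphatic-like ECs (58 and 51, up to 5.17% and 5.88%). The intervals of all these class differences included 0, and no difference between classes was tested. For gCap-like ECs the interval lay above 0 under only some of the 14 alternatives run. The differences there were 0.257 points with no doublets removed, 0.401 without the upper limit of genes and 0.359 from 500 genes on. They were 0.293 below 10% mitochondrial UMIs, 0.196 at 3 marker UMIs and 1.02 at 1 marker UMI. The lowest alternative, with every cell thinned to 2000 UMIs, was 0.139 points (-0.0120 to 0.335), an interval that included 0. At 1 marker UMI the interval also lay above 0 in vein-like ECs (3.29 points, 0.291 to 6.65) and in the cluster with Hey1 and Efnb2 (1.33, 0.354 to 2.49). After thinning to 2000 UMIs, the same call gave intervals that included 0 in both. The differences were then 1.83 points (-0.572 to 4.59) in vein-like ECs and 0.336 (-0.0906 to 0.982) in that cluster. In gCap-like ECs the thinned difference was 0.288 points (0.0053 to 0.600). In the mixed clusters, outside the ECs, 4 of 866 and 13 of 1235 cells were cycling.

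The cycling cells of the 2 libraries differed in what else they held. Among mitosis members other than Mki67 and Top2a, at least 3 UMIs were found in 1 of 19 cycling control ECs and in 15 of 37 cycling B16-F10 ECs. Of these 15 cells, 11 held both markers, and 9 were gCap-like, 3 vein-like, 1 aCap-like and 2 in unnamed clusters. In 3 of the 6 cycling vein-like cells of the B16-F10 library Mki67 had 8, 12 and 14 UMIs with no UMI of Top2a. The other 18 control and 22 B16-F10 cycling ECs carried at most 2 UMIs of the remaining mitosis members, and 16 and 20 of them had Top2a UMIs only. The 15 cells held a median of 4 S phase UMIs (range 0 to 68), and the other 22 a median of 2.5 (0 to 7). One of the 15, a gCap-like cell, held 43 UMIs of melanoma markers. At least 2 were held by 4 of the 37, and by 645 of the 6298 B16-F10 ECs that were not cycling. In the control library, which held no melanoma-like cell, they were held by 0 of 19 cycling ECs and 377 of the 6920 others. Without ECs of at least 2 melanoma UMIs, the mitosis ratio was 1.09 and the difference in cycling share 0.291 points. That check too was added after the data had been seen.

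**Figure D3:**
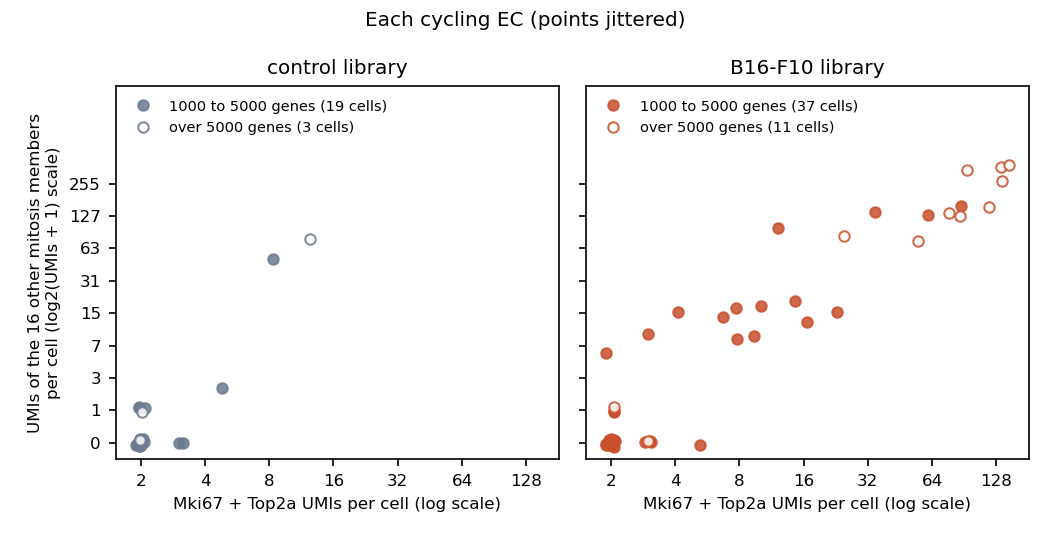
Each point is a cycling EC, with its UMIs of Mki67 and Top2a (x axis, log scale) and of the 16 other mitosis members (y axis, log2 of UMIs plus 1), slightly jittered; open points are ECs of over 5000 genes, outside the comparisons. Among filled points the control library holds 1 cell with at least 3 other mitosis UMIs and the B16-F10 library 15.

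The higher mitosis sum was held by few cells. In the B16-F10 library the 5 ECs with the most mitosis UMIs held 752 of 1784 (42.2%), and the 10 highest held 50.0%, against 10.5% and 13.1% in the control library. ECs with at least 10 UMIs of the other mitosis members numbered 1 and 13, and these held 7.21% and 48.6% of such UMIs. In ECs that were not cycling (6920 and 6298), the mitosis sum went from 11.7 to 13 CPM, a ratio of 0.15 (-0.00 to 0.31), and without Mki67 and Top2a, which that class holds at 1 UMI at most, it was 0.08 (-0.08 to 0.24). In these cells 27 members were measured, with 2 at least 1.5-fold higher (Top2a and Ccnb2), where 8.15% of all genes were, and 2 lower (Ccne2 and Mcm7), where 10.8% were. The S phase sum in them had a ratio of 0.11 (0.07 to 0.14), close to that in all ECs. S phase UMIs were spread over many cells. At least 1 was found in 71.0% of control and 80.0% of B16-F10 ECs, and after thinning to 2000 UMIs in 31.6% and 33.7%.

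Free RNA was measured in near-empty barcodes of up to 100 UMIs. There the mitosis members reached 33.7 CPM among control barcodes and 67.3 CPM among those of the B16-F10 library. With an estimated free RNA share of 1.42% and 2.03% per EC, these would supply 0.478 and 1.37 CPM of the 13.5 and 30.2 CPM in ECs.

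**Figure D4:**
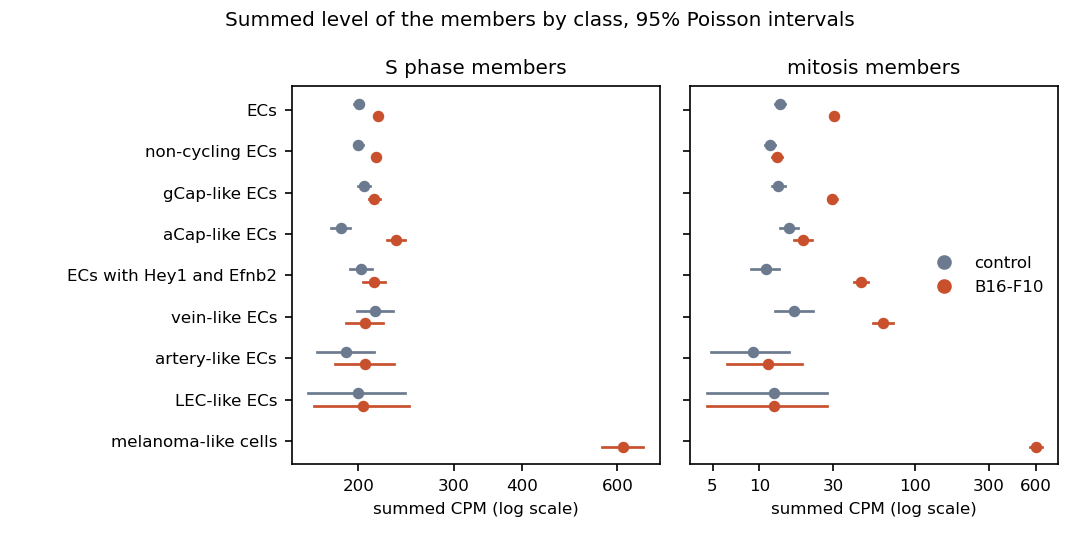
Summed CPM (log scale) of S phase members and mitosis members in ECs, EC classes and melanoma-like cells, control and B16-F10, with exact Poisson 95% intervals. The EC cluster with Fosl1 and Sox9 is not shown. S phase members lie near 200 CPM in most classes, and the mitosis members separate the libraries in gCap-like and vein-like ECs and in the cluster with Hey1 and Efnb2, where single cells hold much of the sum.

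The mitosis sum was higher in some vessel classes and not separable in others. The ratio was 1.15 (0.98 to 1.33) in gCap-like ECs (13.3 to 29.5 CPM), 1.90 (1.45 to 2.37) in vein-like ECs (16.8 to 62.7 CPM) and 2.04 (1.71 to 2.38) in the cluster with Hey1 and Efnb2 (11 to 45.2 CPM). Single cells held much of these sums. In that cluster 1 cell held 238 of the 359 B16-F10 UMIs, and in vein-like ECs 1 cell held 107 of 198. Without the highest cell of each library the ratio was 0.52 (0.12 to 0.92) in the cluster with Hey1 and Efnb2, 0.89 (0.37 to 1.43) in vein-like ECs and 1.06 (0.87 to 1.25) in gCap-like ECs. Without the 2 highest it was 0.49 (0.08 to 0.91), 0.31 (-0.28 to 0.90) and 0.70 (0.50 to 0.91), and in all ECs it was 0.89 (0.75 to 1.02). These values were added after the data had been seen. With all cells it was 0.30 (0.01 to 0.58) in aCap-like ECs, or 0.24 (-0.05 to 0.53) without the highest cell, 0.31 (-0.89 to 1.52) in artery-like ECs with 13 and 14 UMIs, and -0.00 (-1.90 to 1.90) in lymphatic-like ECs with 6 and 6 UMIs. In vein-like ECs Mki67 had 1 and 36 UMIs. The ratio of the S phase sum was 0.34 (0.26 to 0.42) in aCap-like ECs, 0.06 (0.01 to 0.11) in gCap-like ECs, and -0.06 (-0.22 to 0.09) in vein-like ECs. The aCap-like ECs lay in a deeper cluster of 921 control and 889 B16-F10 cells and a shallower one of 525 and 80, with medians of 11246.5 and 4940 UMIs. Within these the S phase ratio was 0.21 (0.12 to 0.29) and 0.06 (-0.38 to 0.47), lower than in the class as a whole.

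In gCap-like ECs 27 members were measured, and 10 were at least 1.5-fold higher, where 7.87% of all genes were, and 2 lower, Ccne2 (-1.02) and Mcm7 (-0.76), where 9.03% were. The 10 were Mki67 (3.17), Top2a (1.92), Ccnb2 (1.83), Ube2c (1.78), Birc5 (1.75), Cdk1 (1.59), Cenpf (1.28), Tpx2 (1.02), Nusap1 (0.97) and, of the S phase members, Mcm3, with 611 and 1037 UMIs (0.59, 0.45 to 0.74). In aCap-like ECs only 14 members were measured, of which 2 belonged to mitosis. Here 3 were at least 1.5-fold higher, where 6.42% of all genes were, and 0 lower, where 8.09% were. They were the S phase members Rrm1 (171 and 243 UMIs, 0.78), Mcm2 (41 and 57 UMIs, 0.74) and Mcm3 (222 and 292 UMIs, 0.66), each with an interval above 0. Within the deeper aCap-like cluster they were at 0.70 (0.39 to 1.02), 0.74 (0.08 to 1.41) and 0.48 (0.22 to 0.75), the last under the 1.5-fold limit, and in the shallower one all 3 intervals included 0. Mcm7 was lower in 5 of 6 EC classes, without the cluster with Fosl1 and Sox9, and its interval was below 0 in 3 of them.

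The gCap-like ECs included a cluster with Pim3 among its 10 leading genes that held 87 control and 1049 B16-F10 cells. Cycling cells in it numbered 1 and 6, and 11 of 3807 and 14 of 2615 in the other gCap-like clusters. Its mitosis sum in the B16-F10 library was 18.6 CPM, against 34.4 CPM in the other gCap-like clusters, but 2 cells of those held 369 of their 764 UMIs, and without the 2 highest cells of each side the sums were 13 and 17.8 CPM. Its S phase sum was 244 against 201 CPM. Pim3, a kinase, was at 275 CPM in B16-F10 ECs that were not cycling and at 269 CPM in the cycling ones, so both kinds of EC held it. Of other markers of reactive capillary ECs in the study's paper, Bcl3 was at 113 CPM in the cycling B16-F10 ECs and 116 CPM in the others. Inhbb was lower in the cycling ones, at 27.1 CPM (13.5 to 48.5) against 113 CPM (111 to 116). Myc had 4 UMIs (9.85 CPM, 2.68 to 25.2) in the cycling B16-F10 ECs and 27.2 CPM (25.9 to 28.6) in the others.

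Melanoma-like cells within the gene limit, 78 in number and all in the B16-F10 library, held far more of the members than the ECs beside them. The S phase sum was 615 CPM against 217 CPM in ECs, a ratio of 1.5 (1.37 to 1.63), and the mitosis sum was 600.2 CPM against 30.2 CPM, a ratio of 4.31 (4.17 to 4.46). Of 30 members measured, 28 were at least 1.5-fold higher, where 15.9% of all genes were, and 2 lower, where 67.1% were. The largest ratios were those of Rrm2 (6.92, 6.30 to 7.56), Birc5 (5.93) and Ube2c (5.85), and Mcm2 was at 3.82. Slbp was lower at -1.40 (-2.40 to -0.56), while the interval of Ccne2 (-1.39) reached from -6.70 to 1.11. Cycling were 13 of 78 cells (16.7%, 9.18 to 26.8). At least 3 UMIs were held of the S phase members by 40 cells and of the other mitosis members by 18, with 17 holding both and 37 neither. These melanoma-like cells stood at a median of 8039.5 UMIs and only 1929 genes. Above the upper limit of genes lay 11 more melanoma-like cells, at a median of 90449 UMIs, with lower sums than the 78. Their S phase sum was 184 CPM and their mitosis sum 70.7 CPM. B16-F10 ECs had 257 and 478 CPM above the limit, and 217 and 30.2 CPM within it. Cycling were 3 of the 11 cells (27.3%, 6.02 to 61.0), and 7 held at least 3 UMIs of the other mitosis members. The control library held no melanoma-like cell for comparison.

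**Figure D5:**
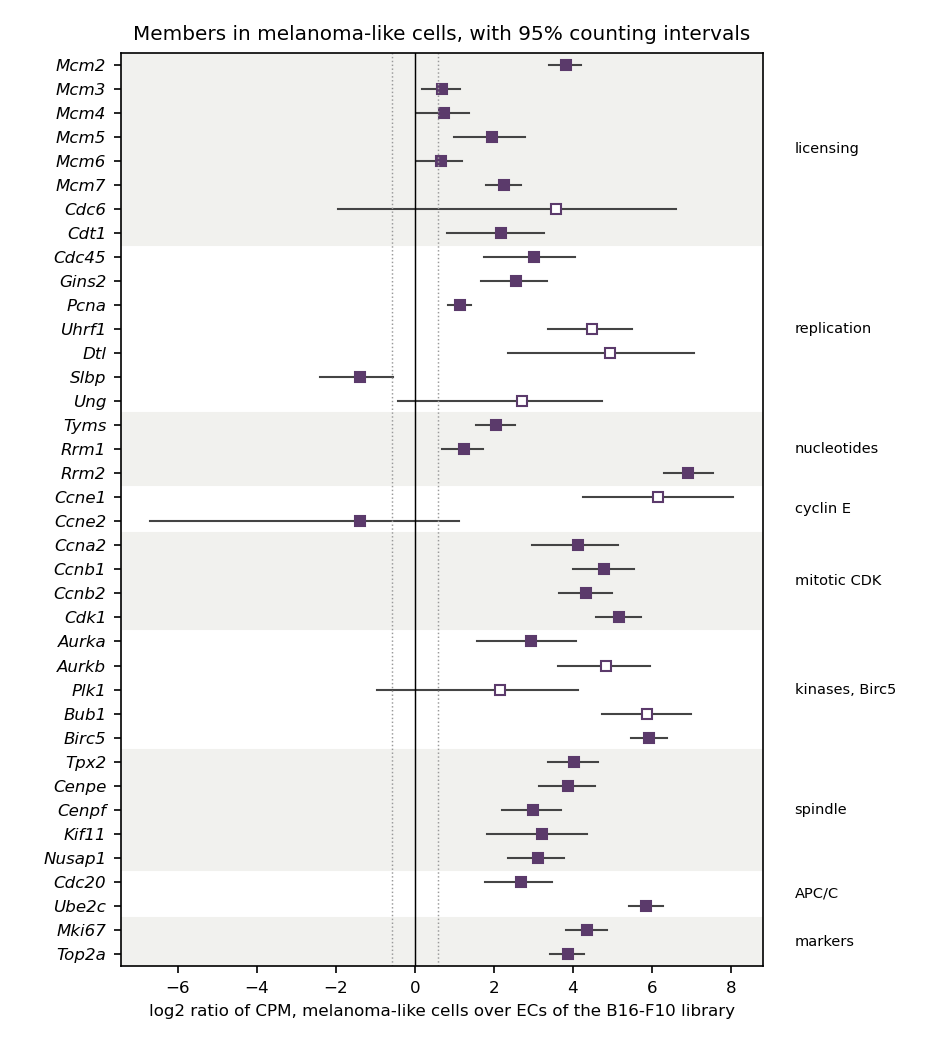
Log2 ratio of CPM of each member in melanoma-like cells over ECs of the B16-F10 library (x axis), with 95% counting intervals; hollow squares are members that were not measured by the 50 UMI rule. All members but Slbp and Ccne2 lie above 0, and the highest is Rrm2 at 6.92.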

How the data were processed

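Single-cell RNA libraries of 1 control and 1 B16-F10 sample were analysed, with groups taken from the labels. The authors deposited raw UMI counts per gene and barcode, with all barcodes listed, and the matrix headers name Cell Ranger 7.2.0, with mm10 as the genome. The study's methods give an earlier version, so the version is not settled, and whether intron reads were counted is not given in the sources used here. The libraries held 85794655 and 104978816 UMIs.

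The limits per cell were 1000 to 5000 genes and below 20% mitochondrial UMIs. Scrublet in scanpy 1.11.5 scored the cells of each library, and the 564 and 554 with the highest scores were called doublets and removed. These numbers were set beforehand from the cell count, at 0.8% per 1000 cells, and are no measured doublet rate. Of 3000 variable genes asked for, any that were cell cycle genes were left out. Any among the study's 50 markers of reactive capillary ECs or 50 markers of interferon-rich ECs were left out too. Clustering used the remaining 2893 (leidenalg 0.10.2, resolution 0.8, 20 neighbours, 30 principal components). Classes were named from marker lists. Members and lists were chosen with earlier results of these data known, and the thresholds of the naming and re-splitting rules date from after a first look at the clusters. All 38 members are accounted for. Those given with full values were fixed by name, with any other member at least 1.5-fold different in ECs or gCap-like ECs, and of other lists at most the 5 largest in each direction.

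Levels carry exact Poisson intervals, ratios exact conditional binomial intervals, shares Clopper-Pearson and differences of shares Newcombe intervals, all at 95%. A count of 0 allows 3 counts. A gene was counted as higher or lower at 1.5-fold with at least 50 UMIs over both libraries. There was no test. The ratio scan was tested on simulated data. Promoters came from RefSeq tables of GRCm38.p6.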

Additional observations from a re-analysis of the deposited data

Results flagged for a closer look

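ECs of over 5000 genes were removed by the upper limit of genes per cell and entered only the values given without that limit. After doublet calls, which removed 132 of 348 control and 243 of 644 B16-F10 cells above that limit, 149 control ECs and 257 B16-F10 ECs were left there. Their mitosis members summed to 141 UMIs (42.3 CPM) in the control library and to 2849 UMIs (478 CPM) in the B16-F10 library, which is more mitosis UMIs than the 1784 found in all B16-F10 ECs within the limit. Cycling were 3 of the 149 control ECs (2.01%, 0.417 to 5.77) and 11 of the 257 B16-F10 ECs (4.28%, 2.16 to 7.53). The 11 cells held 2774 mitosis UMIs, with 0 to 1 UMI of the melanoma markers and 85 to 272 of the endothelial markers. Both results were singled out because they came from cells the comparisons did not use. The mitosis sum was above that of the control library, while the intervals of the 2 cycling shares overlapped. The part of these cells in the difference between the libraries was not tested.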

How the results depend on the processing

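No paired analysis was possible because the control and the B16-F10 side are 1 library each, and so no replicate could be left out. Across the alternatives run, 122 summary values stayed within their counting interval or count limit and 24 moved; of values of single members 203 stayed, 19 moved and 2 changed sign. With no upper limit of genes per cell, the mitosis ratio in ECs was 2.21, the median of members 0.97, and 19 members were higher and 1 lower. With cell cycle genes kept in the clustering, these were 0.21, 0.10 and 2 higher, and Ube2c (-0.34) and Nusap1 (-0.024) changed sign. There 12 of the 15 B16-F10 cycling ECs with at least 3 other mitosis UMIs fell in a mixed cluster, which was kept out. The 1 such control EC fell in it too. With ECs taken cell by cell (2746 and 1811 cells), these values were 0.86, 0.11, 3 higher and 1 lower. With every cell thinned to 2000 UMIs, they were 0.99, 0.13, 3 higher and 1 lower, and the cycling share of melanoma-like cells was 3.90%. Doubled cluster resolution gave a median of 0.29. With at least 1 UMI of the markers, the cycling difference was 1.04 points in ECs and 1.02 in gCap-like ECs, and the melanoma-like share 26.9%. Ratios scaled by the median of all genes (-0.05) gave S phase ratios of 0.17 in ECs and 0.16 in ECs that were not cycling, and 1 member lower. A 2-fold limit left 0 members lower. No EC cluster had a median under 4000 UMIs, so leaving such clusters out changed nothing. The cause of these shifts was not tested. Of the 38 members, 6 stayed under the count minimum, 4 of S phase and 2 of mitosis.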
